A study of Homo sapiens with 6 samples.

Results

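The genes described here are 40 members of the core autophagy machinery and its cargo receptors, taken as a fixed list of symbols and looked up in a table of gene counts. All 40 matched an Ensembl identifier among the 37871 genes listed, and all 40 had enough counts to be among the 19170 genes tested. Autophagy encloses cytoplasm, damaged organelles or bacteria in a double membrane, the autophagosome, and delivers it to the lysosome. A kinase complex built on ULK1 or ULK2 starts the process, and a lipid kinase complex built on BECN1 and PIK3C3 marks the growing membrane. Lipid transfer proteins enlarge that membrane, conjugation enzymes attach proteins of the ATG8 family to it, and receptors such as SQSTM1 tie cargo to the ATG8 proteins. In epithelial cells the pathway is known for removing damaged mitochondria, ruptured endosomes and inflammasome components.

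The libraries hold RNA of the human bladder carcinoma line T24, 3 from cells given LPS plus nigericin and 3 from cells given vehicle. LPS, the lipopolysaccharide of bacterial outer membranes, is sensed through TLR4, and nigericin is an ionophore that lets potassium out of cells and is used to activate the NLRP3 inflammasome. No group received LPS alone or nigericin alone, the labels state neither dose nor duration, and all libraries come from this single cell line. The labels do not say whether libraries came from separate cultures, so each p-value reflects only how far these 6 libraries scatter, which may be technical. In RNA from whole cultures, a smaller share of cells with a transcript and less of it per cell cannot be told apart.

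The libraries held 66180407 to 86594539 gene counts after LPS plus nigericin and 81917343 to 89152224 in vehicle. Keratin genes of epithelial cells were abundant in every library, and KRT7 averaged 2032 ± 280.0 CPM (counts per 1000000 counts of the library) after treatment and 3352 ± 640.0 CPM in vehicle (SD, n = 3 each, as for every mean below). The 6 epithelial markers summed to 3510 to 4512 CPM in treated libraries and 6536 to 9536 CPM in vehicle libraries, and 4 of the 5 tested fell. CDH1 was at 0 in all vehicle libraries, and the uroplakin genes UPK1A, UPK1B, UPK2 and UPK3A each averaged under 1 CPM. The 3 mesenchymal markers summed to 6663 to 9102 CPM in treated libraries and 2641 to 4034 CPM in vehicle libraries. Most of that sum was FN1, at 7753 ± 1214 CPM after treatment and 3164 ± 694 CPM in vehicle (log2 fold change 1.29). CDH2 was higher as well (log2 fold change 1.78). VIM went the other way, at 75.4 ± 4.68 CPM after treatment and 89.7 ± 7.42 CPM in vehicle, and did not pass (log2 fold change -0.25, edgeR adjusted p = 0.0904). All 3 leukocyte markers in the table averaged under 1 CPM, PTPRC being at 0 in vehicle. LYZ alone of them was tested, at 0.673 ± 0.113 CPM after treatment and 0.0671 ± 0.0812 CPM in vehicle. Near this floor it was called higher (log2 fold change 3.34, edgeR adjusted p = 0.0164), also with offsets for GC content and length (2.78, edgeR adjusted p = 0.0400). The urothelial transcription factor genes GATA3 and PPARG fell, to 11.2 ± 0.306 and 40.6 ± 2.89 CPM after treatment, against 18.3 ± 3.09 and 83.5 ± 3.88 CPM in vehicle. Genes of the mitochondrial genome took 12.39%, 12.06% and 12.04% of TMM-scaled counts in treated libraries, against 6.49%, 7.33% and 6.78% in vehicle libraries. The part of these shifts in the results below was not tested. GC content moved with the groups. Each library's log2 level minus the mean of all 6 had a Spearman correlation with transcript GC content, across 13976 protein-coding genes, of -0.58, -0.47 and -0.53 in treated libraries 1 to 3 and of 0.53, 0.64 and 0.21 in vehicle libraries 1 to 3. In this trend, vehicle library 3 was the weakest of the vehicle libraries. Many results are therefore also given from a fit that removes each library's trend with GC content and transcript length (called here the GC and length offsets). A result printed without a value from that fit may still change in it. Among the markers above, 3 epithelial genes were lower with the offsets, and KRT7 did not pass (log2 fold change 0.08, edgeR adjusted p = 0.382). FN1 was at 0.34 with the offsets, CDH2 at 1.28, and VIM was called lower at -0.38 (edgeR adjusted p = 0.00779). Those offsets also remove any effect of treatment that follows either property.

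Of the 40 autophagy genes, 19 were higher and 7 lower after LPS plus nigericin, and 14 did not pass the threshold. The threshold was an adjusted p under 0.05 in edgeR's quasi-likelihood test, with Benjamini-Hochberg adjustment over all tested genes. Of all tested genes, 55.3% passed, 28.9% higher and 26.4% lower. The median log2 fold change was 0.34 over the 40 genes and 0.00 over all tested genes. A rise of at least 2-fold was called for 10 of the 40, against 17.8% of all tested genes, and a fall of at least 2-fold for 0 of the 40, against 14.3%. For 27 of the 40 genes the 2 groups of values lay wholly apart, against 67% of all tested genes. Among the 13976 tested protein-coding genes, 33.0% were higher and 28.2% lower, with a median log2 fold change of 0.08. The groups lay wholly apart for 71.4% of them. With the GC and length offsets, 13 of the 40 were higher and 11 lower, against 23.6% and 26.8% of all genes in that fit, and the median was 0.05. Of the 19 rises, 9 passed in the same direction with the offsets, 9 did not pass and 1 turned to a fall. Of the 7 falls, 4 passed in the same direction and 3 did not pass. The number lower was 4 without treated library 1, and also 4 without treated library 3.

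**Figure D1:**
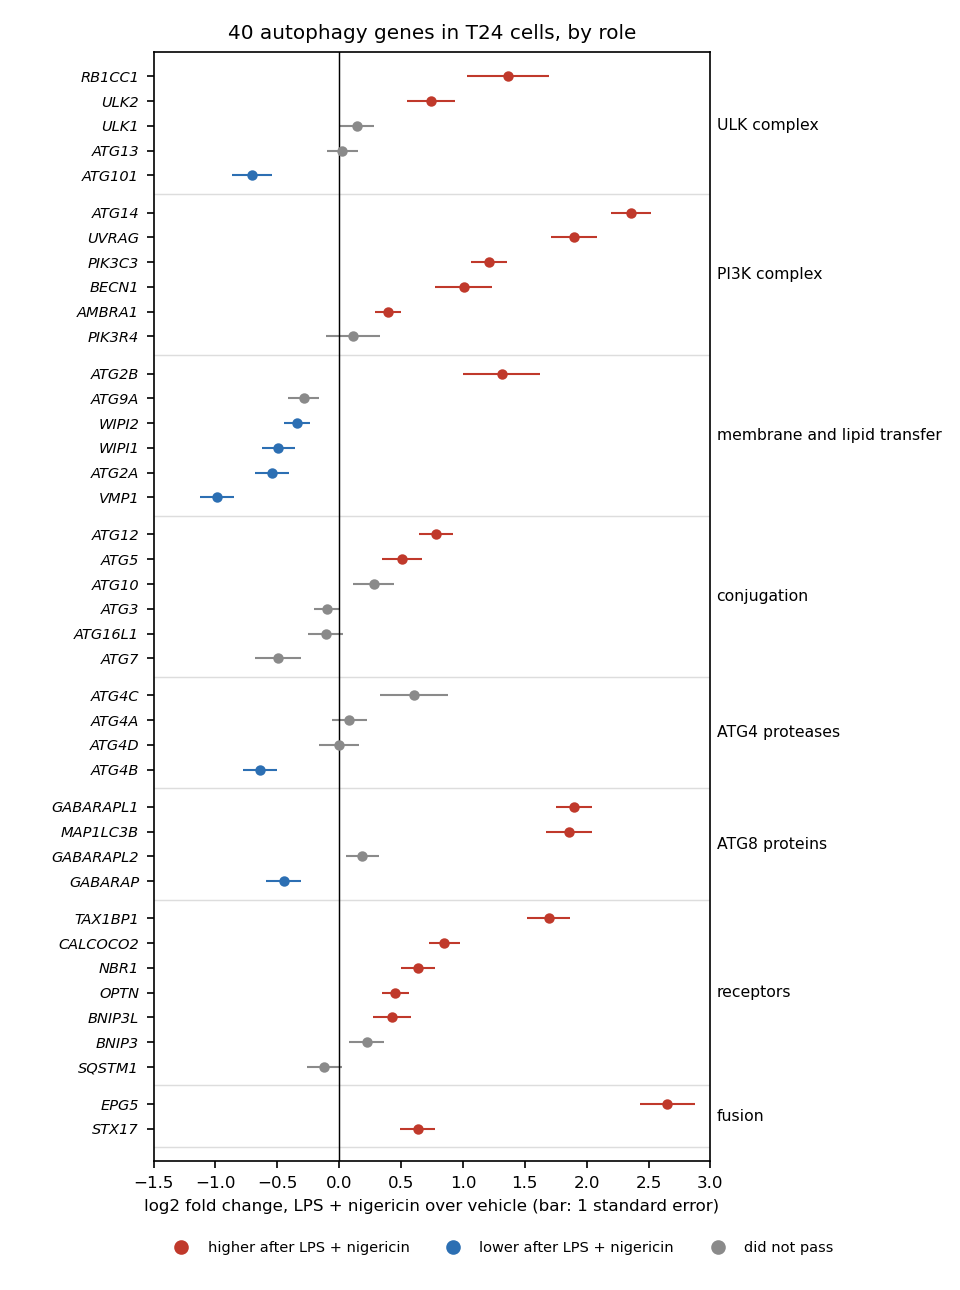
Log2 fold change (LPS plus nigericin over vehicle) of the 40 genes, ordered by role and by value, with bars of 1 standard error from the edgeR fit over 3 libraries per group. Red genes passed as higher, blue as lower and grey did not pass: EPG5 at 2.65 and ATG14 at 2.36 lie farthest right, VMP1 at -0.99 farthest left.

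To show the regulatory sequence next to the expression values, the RefSeq promoter windows (GRCh38.p14, 250 bases before to 50 after the annotated start, on the gene's strand) of 4 genes are printed with every CACGTG hexamer in capitals. CACGTG is an E-box, the core of the element bound by TFEB, a transcription factor of lysosome and autophagy genes. ATG14, MAP1LC3B and GABARAPL1 are shown because they rose together, and ATG3 because its window holds 2 such hexamers although its RNA did not pass. The ATG14 hexamer starts 21 bases before the annotated start, and the first ATG3 hexamer 18 bases before it.
ATG14: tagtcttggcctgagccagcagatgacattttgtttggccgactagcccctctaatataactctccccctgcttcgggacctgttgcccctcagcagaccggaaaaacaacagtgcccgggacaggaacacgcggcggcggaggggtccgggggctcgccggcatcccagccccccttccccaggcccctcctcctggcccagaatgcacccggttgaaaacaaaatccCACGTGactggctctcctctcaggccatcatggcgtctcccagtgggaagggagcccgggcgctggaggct
MAP1LC3B: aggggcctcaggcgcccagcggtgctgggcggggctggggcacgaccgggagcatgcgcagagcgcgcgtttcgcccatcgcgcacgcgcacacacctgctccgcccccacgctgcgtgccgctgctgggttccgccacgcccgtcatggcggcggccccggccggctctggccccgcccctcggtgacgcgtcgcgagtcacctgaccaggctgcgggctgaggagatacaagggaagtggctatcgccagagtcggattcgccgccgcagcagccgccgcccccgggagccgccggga
GABARAPL1: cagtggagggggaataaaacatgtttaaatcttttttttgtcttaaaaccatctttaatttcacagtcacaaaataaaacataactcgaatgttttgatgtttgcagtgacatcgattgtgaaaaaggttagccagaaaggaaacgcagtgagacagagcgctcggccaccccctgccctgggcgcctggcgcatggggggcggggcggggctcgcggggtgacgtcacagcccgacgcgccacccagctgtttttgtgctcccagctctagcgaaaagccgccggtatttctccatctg
ATG3: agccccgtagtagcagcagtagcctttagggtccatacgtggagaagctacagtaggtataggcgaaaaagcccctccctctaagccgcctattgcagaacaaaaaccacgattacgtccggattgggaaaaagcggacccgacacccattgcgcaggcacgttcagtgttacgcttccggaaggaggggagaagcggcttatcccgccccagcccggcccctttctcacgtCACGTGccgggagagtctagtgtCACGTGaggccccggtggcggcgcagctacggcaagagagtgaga

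The windows lie at chr14:55411781-55412080 on the minus strand for ATG14, chr16:87392086-87392385 on the plus strand for MAP1LC3B, chr12:10212627-10212926 on the plus strand for GABARAPL1 and chr3:112561913-112562212 on the minus strand for ATG3. A window was found for 34 of the 40 genes, and 7 of them had more than 1. CACGTG (both strands) was present for 3 of the 34, namely ATG14, ATG3 and BNIP3, against 12.2% of 11118 tested protein-coding genes with a window and 7.26% of all 35116 windows. The longer TCACGTGA, which contains that hexamer, was present for ATG3 alone among the 34, against 2.19% of the same protein-coding genes and 0.980% of all windows. The antioxidant-type motif TGACNNNGC was present for 3 (ATG101, CALCOCO2 and MAP1LC3B), against 18.9% and 13.3%. The heat shock type GAANNTTC was present for 2 (GABARAPL2 and TAX1BP1), against 6.58% and 6.77%. The hypoxia core ACGTG, which lies within CACGTG, was present for 13, BNIP3 and VMP1 among them, against 31.6% and 21.4%. A match describes letters in a window and says nothing of binding.

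The lipid kinase complex held 4 of the 10 rises of at least 2-fold, and 5 of its 6 genes were higher and 0 lower (median log2 fold change 1.11). Of all tested genes, 28.9% were higher and 26.4% lower. The median GC content of these 6 genes was 44.9%, within a GC quintile of protein-coding genes of which 50.1% were higher. With the offsets, 4 of the 6 were higher and 1 lower, against 23.6% and 26.8% of all genes in that fit. ATG14, which directs the complex to autophagosome formation, had 46.2, 43.0 and 33.9 CPM in treated libraries, against 7.52, 8.05 and 8.44 CPM in vehicle libraries. Its lowest treated value was far above its highest vehicle value, and it rose 5.13-fold (log2 fold change 2.36, SE 0.159, edgeR adjusted p = 5.38e-05). UVRAG, the alternative subunit that serves endosomes and later steps, had 47.5, 37.8 and 44.5 CPM in treated libraries, against 13.0, 8.93 and 12.8 CPM in vehicle libraries. It rose 3.73-fold (log2 fold change 1.90, SE 0.185, edgeR adjusted p = 1.84e-04). Both calls held with the GC and length offsets, at 1.78 for ATG14 and 1.57 for UVRAG.

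PIK3C3, the catalytic lipid kinase VPS34, had 21.7, 18.0 and 22.2 CPM in treated libraries, against 8.58, 8.68 and 9.49 CPM in vehicle libraries. The groups were well apart (log2 fold change 1.21, SE 0.145, edgeR adjusted p = 4.24e-04), but with the offsets the value was 0.05 and did not pass (edgeR adjusted p = 0.842). BECN1, the scaffold of the complex, had 61.7, 60.3 and 60.0 CPM in treated libraries, against 33.0, 19.4 and 38.2 CPM in vehicle libraries. The treated libraries were nearly alike while vehicle library 2 lay well under the other vehicle libraries, and the log2 fold change was 1.00 (SE 0.229, edgeR adjusted p = 0.00696), or 0.50 with the offsets (edgeR adjusted p = 0.0221). AMBRA1, a regulator that binds BECN1, averaged 73.8 ± 2.33 CPM after treatment and 56.2 ± 2.54 CPM in vehicle (SD, n = 3 each), a log2 fold change of 0.39 (edgeR adjusted p = 0.0124). Without vehicle library 1, AMBRA1 stayed at 0.39 but did not pass (edgeR adjusted p = 0.0638). PIK3R4, the regulatory subunit VPS15, had 11.8 ± 1.19 CPM after treatment and 10.97 ± 3.01 CPM in vehicle and did not pass (log2 fold change 0.11, edgeR adjusted p = 0.693), whereas with the offsets it was called lower at -0.51 (edgeR adjusted p = 0.00910).

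Members of the initiating kinase complex moved in both directions, with 2 of 5 higher and 1 lower (median log2 fold change 0.14). Of all tested genes, 28.9% were higher and 26.4% lower. With the offsets, 1 of the 5 was higher and 0 lower, against 23.6% and 26.8% of all genes in that fit. RB1CC1, the FIP200 scaffold that holds the complex together, had 22.02, 14.1 and 15.6 CPM in treated libraries, against 7.13, 3.70 and 9.23 CPM in vehicle libraries. The groups did not overlap, and the log2 fold change was 1.37 (SE 0.331, edgeR adjusted p = 0.00897), or 0.39 with the offsets, where it did not pass (edgeR adjusted p = 0.0824). ULK1, the kinase that integrates nutrient signals, had 35.2, 34.1 and 33.4 CPM in treated libraries, against 35.1, 26.6 and 31.2 CPM in vehicle libraries. These values overlapped, and ULK1 did not pass (log2 fold change 0.14, SE 0.137, edgeR adjusted p = 0.3996), although it was called higher at 0.64 with the offsets (edgeR adjusted p = 0.00797). Its transcript has a GC content of 64.2%.

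ULK2, the close relative of ULK1, averaged 4.20 ± 0.564 CPM after treatment and 2.52 ± 0.200 CPM in vehicle (log2 fold change 0.74, edgeR adjusted p = 0.0130). That call was lost without vehicle library 1 (0.69, edgeR adjusted p = 0.0581), without treated library 3 (0.62, edgeR adjusted p = 0.0600) and with the offsets (0.19, edgeR adjusted p = 0.471). ATG101, which stabilises ATG13, fell to 53.2 ± 6.98 CPM in treated libraries, against 86.7 ± 14.7 CPM in vehicle libraries (log2 fold change -0.71, edgeR adjusted p = 0.00712), but its value with the offsets was -0.02 (edgeR adjusted p = 0.827). ATG13, the phosphorylated adaptor of the complex, had 158 ± 4.52 CPM after treatment and 155 ± 22.8 CPM in vehicle and did not pass with or without the offsets (log2 fold change 0.03, edgeR adjusted p = 0.877).

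Genes of membrane supply and lipid transfer were mostly lower, with 4 of 6 lower and 1 higher (median log2 fold change -0.41). Of all tested genes, 26.4% were lower and 28.9% higher. With the offsets, 3 of the 6 were lower and 0 higher, against 26.8% and 23.6% of all genes in that fit. VMP1, a scramblase of the endoplasmic reticulum needed for the autophagosome to separate from it, had 98.3, 109.5 and 102 CPM in treated libraries, against 212, 169 and 234 CPM in vehicle libraries. Every treated value was under every vehicle value, and the log2 fold change was -0.99 (SE 0.140, edgeR adjusted p = 8.40e-04). VMP1 is a GC-poor gene, at 38.6%, that went against the GC trend, and with the offsets its value was -1.82 (edgeR adjusted p = 1.11e-05). WIPI1, which binds the lipid made by PIK3C3, had 11.2, 11.5 and 11.1 CPM in treated libraries, against 14.7, 16.1 and 16.8 CPM in vehicle libraries. The groups did not overlap (log2 fold change -0.49, edgeR adjusted p = 0.0132), and the call was lost without treated library 1 (-0.49, edgeR adjusted p = 0.0526) or treated library 3 (-0.48, edgeR adjusted p = 0.0637).

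WIPI2, which recruits ATG16L1 to the same lipid, averaged 53.5 ± 1.79 CPM after treatment and 67.6 ± 3.31 CPM in vehicle (log2 fold change -0.34, edgeR adjusted p = 0.0247). Its call was lost without vehicle library 1 or any treated library (-0.31 to -0.36, edgeR adjusted p = 0.0566 to 0.114) and with the replicate number as a block (-0.34, edgeR adjusted p = 0.0523). The lipid transfer proteins ATG2A and ATG2B, which bridge the endoplasmic reticulum and the growing membrane, differed in direction. ATG2A had 63.8 ± 5.09 CPM after treatment and 93.0 ± 13.3 CPM in vehicle (log2 fold change -0.54, edgeR adjusted p = 0.0108). ATG2B had 14.5, 9.06 and 12.2 CPM in treated libraries, against 4.85, 2.92 and 6.62 CPM in vehicle libraries, so that each treated value exceeded each vehicle value (log2 fold change 1.31, SE 0.311, edgeR adjusted p = 0.00822). Their transcripts have GC contents of 64.0% and 44.2%, and with the offsets neither passed, at -0.11 for ATG2A and 0.41 for ATG2B.

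ATG9A, the scramblase whose vesicles seed the membrane, had 73.4, 76.9 and 73.0 CPM in treated libraries, against 99.8, 95.6 and 76.7 CPM in vehicle libraries. The highest treated value just exceeded vehicle library 3, and the gene did not pass (log2 fold change -0.29, SE 0.127, edgeR adjusted p = 0.0874). It passed as lower without vehicle library 3 (-0.40, edgeR adjusted p = 0.0115) and with library totals in place of composition (TMM) factors (-0.33, edgeR adjusted p = 0.0293), and was at 0.18 with the offsets. ATG9A shares 1833 exon bases (38.8% of its exons) with an overlapping gene on the same strand, so its counts may be split between them.

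Of the 6 conjugation genes, 2 were higher and 0 lower (median log2 fold change 0.09), against 28.9% and 26.4% of all tested genes. With the offsets 0 were higher and 3 lower, against 23.6% and 26.8%. ATG12, the ubiquitin-like protein joined to ATG5, averaged 50.01 ± 2.08 CPM after treatment and 29.1 ± 4.25 CPM in vehicle (log2 fold change 0.78, edgeR adjusted p = 0.00222), and was at -0.09 with the offsets (edgeR adjusted p = 0.589). ATG5 had 19.1, 19.6 and 22.8 CPM in treated libraries, against 15.1, 11.9 and 16.2 CPM in vehicle libraries. The gap between groups was small (log2 fold change 0.51, SE 0.162, edgeR adjusted p = 0.0277). The ATG5 call was lost without vehicle library 1 or any treated library (0.42 to 0.56, edgeR adjusted p = 0.0578 to 0.120), with library totals (0.44, edgeR adjusted p = 0.104) and with the offsets (-0.20, edgeR adjusted p = 0.200).

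ATG7, the E1-like enzyme that activates both ATG12 and the ATG8 proteins, had 34.999, 41.1 and 34.9 CPM in treated libraries, against 53.8, 63.7 and 39.1 CPM in vehicle libraries. Vehicle library 3 lay within the treated range, and ATG7 just missed the threshold (log2 fold change -0.50, SE 0.186, edgeR adjusted p = 0.0510). It passed as lower without vehicle library 3 (-0.68, edgeR adjusted p = 0.00372), in DESeq2 (-0.52, adjusted p = 0.0234) and with the offsets (-0.65, edgeR adjusted p = 0.0194). With the replicate number as a block it also passed as lower (-0.47, edgeR adjusted p = 0.0292), as it did with RLE factors, library totals or a filter of 1 CPM (-0.52 to -0.53, edgeR adjusted p = 0.0197 to 0.0470). ATG16L1, which places the conjugation machinery on the membrane, had 26.4, 28.4 and 23.2 CPM in treated libraries, against 30.8, 25.4 and 28.0 CPM in vehicle libraries. Its values overlapped (log2 fold change -0.11, edgeR adjusted p = 0.527), and it was called lower at -0.35 with the offsets (edgeR adjusted p = 0.0338). ATG3, the E2-like enzyme for ATG8 proteins whose promoter holds 2 E-boxes, had 55.5 ± 0.598 CPM after treatment and 59.4 ± 4.03 CPM in vehicle (log2 fold change -0.10, edgeR adjusted p = 0.453), or -0.74 with the offsets (edgeR adjusted p = 0.00115). ATG10, the E2-like enzyme for ATG12, had 9.57 ± 1.44 CPM after treatment and 7.89 ± 0.382 CPM in vehicle (log2 fold change 0.28, edgeR adjusted p = 0.187) and passed neither way.

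Of the 4 ATG4 proteases, which cut ATG8 proteins before conjugation and release them afterwards, only ATG4B passed, as lower. For comparison, 55.3% of all tested genes passed, 28.9% higher and 26.4% lower. ATG4B, the main protease of the family, had 62.0 ± 6.97 CPM after treatment and 96.5 ± 12.1 CPM in vehicle (log2 fold change -0.64, SE 0.139, edgeR adjusted p = 0.00566), but was at -0.05 with the offsets. ATG4A was at 10.4 ± 0.622 CPM after treatment and 9.87 ± 0.571 CPM in vehicle (log2 fold change 0.08, edgeR adjusted p = 0.645). ATG4D, at 29.8 ± 3.15 CPM after treatment and 29.8 ± 4.72 CPM in vehicle, had a log2 fold change under 0.01 in size and did not pass (edgeR adjusted p = 0.995). ATG4C was at 5.44 ± 0.794 CPM after treatment and 3.58 ± 1.18 CPM in vehicle (log2 fold change 0.60, edgeR adjusted p = 0.0932), and passed as higher only without vehicle library 3 (0.84, edgeR adjusted p = 0.0268). With the offsets ATG4D was called higher at 0.84 (edgeR adjusted p = 1.01e-04) and ATG4A lower at -0.35 (edgeR adjusted p = 0.0490). In that fit 23.6% of all genes were higher and 26.8% lower.

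The 4 listed genes of the ATG8 family, whose proteins are attached to the autophagosome membrane, differed in RNA make-up between these libraries. MAP1LC3B, the LC3 protein used as the standard autophagosome marker, had 233, 239.6 and 215 CPM in treated libraries, against 66.4, 46.3 and 76.9 CPM in vehicle libraries. Its lowest treated value was well above its highest vehicle value, and it rose 3.63-fold (log2 fold change 1.86, SE 0.186, edgeR adjusted p = 2.00e-04). GABARAPL1 had 25.3, 26.2 and 23.8 CPM in treated libraries, against 6.17, 6.45 and 7.64 CPM in vehicle libraries. It rose 3.72-fold, with tight replicates in both groups (log2 fold change 1.89, SE 0.145, edgeR adjusted p = 7.65e-05). With the offsets both calls held, at 1.89 for MAP1LC3B and 1.72 for GABARAPL1. In GENCODE 29 (GRCh38), MAP1LC3B spans chr16:87383995-87404779 and GABARAPL1 spans chr12:10212458-10223130, both transcribed from the plus strand.

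GABARAP, which like its relatives acts late in autophagosome closure and fusion, had 129, 163 and 141 CPM in treated libraries, against 195, 225 and 172 CPM in vehicle libraries. It was lower in every treated library (edgeR adjusted p = 0.0262, log2 fold change -0.45, SE 0.140), and -0.36 with the offsets. The GABARAP call was lost without vehicle library 1 (-0.46, edgeR adjusted p = 0.0738), treated library 1 (-0.38, edgeR adjusted p = 0.0970) or treated library 3 (-0.43, edgeR adjusted p = 0.0913). GABARAPL2, also called GATE-16, had 37.7, 37.3 and 39.0 CPM in treated libraries, against 35.6, 28.2 and 36.2 CPM in vehicle libraries. The groups were close without overlapping, and the gene did not pass (log2 fold change 0.19, edgeR adjusted p = 0.267), while with the offsets it was called lower at -0.27 (edgeR adjusted p = 0.0280).

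Divided by exon length, the 4 transcripts summed to 126 ± 8.89 CPM per kb after treatment and 111 ± 7.31 CPM per kb in vehicle (SD, n = 3 each). MAP1LC3B held 36.7%, 33.2% and 33.4% of that sum in treated libraries, against 11.2%, 7.34% and 13.9% in vehicle libraries. GABARAP held 47.8%, 53.0% and 51.2% in treated libraries, against 76.9%, 83.5% and 72.8% in vehicle libraries. GABARAPL1 averaged 4.90% ± 0.239 after treatment and 1.49% ± 0.262 in vehicle. These shares did not overlap between groups, and the exact two-sided permutation p was 0.1 for each, the smallest that 3 libraries against 3 allow, or 0.133 adjusted over the 4 shares. The GABARAPL2 share was 10.01% ± 0.841 after treatment and 9.94% ± 1.89 in vehicle (exact permutation p = 0.9). The 4 shares are parts of the same sum, so a rise in MAP1LC3B lowers the other shares, and the p-values are not independent. As a level, not a share, GABARAP was at 63.7 ± 7.54 CPM per kb after treatment and 86.9 ± 11.7 CPM per kb in vehicle. MAP1LC3B2, a near-identical copy of MAP1LC3B that may share reads with it, was at 1.40 ± 0.706 CPM after treatment and 0.413 ± 0.0127 CPM in vehicle. MAP1LC3A, an LC3 gene left out of these shares, was at 2.14 ± 0.485 CPM after treatment and 5.44 ± 1.81 CPM in vehicle.

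**Figure D2:**
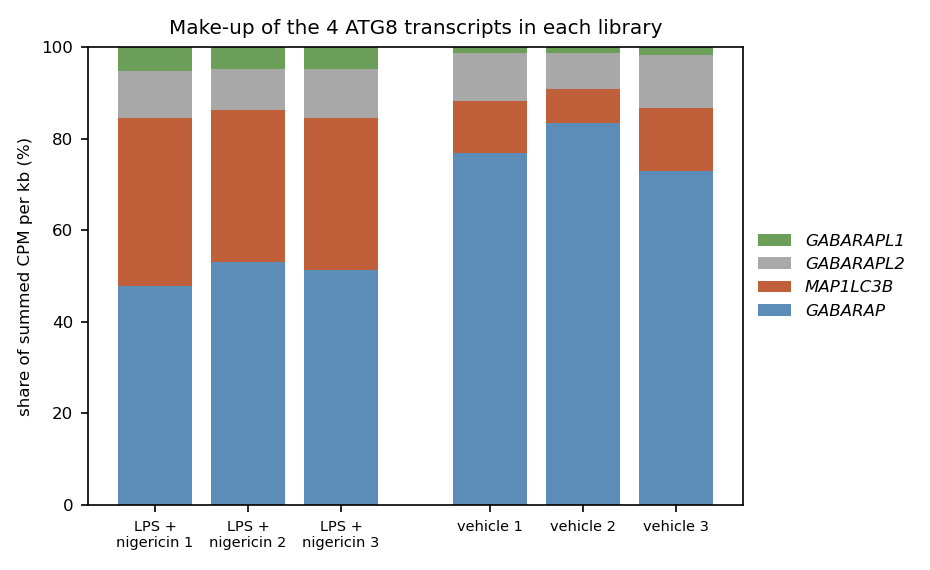
Share of the summed CPM per kb of exon held by each of the 4 ATG8 genes, 1 stacked bar per library, with the 3 LPS plus nigericin libraries on the left and the 3 vehicle libraries on the right. The MAP1LC3B band covers 33.2% to 36.7% of the treated bars and 7.34% to 13.9% of the vehicle bars, while GABARAP covers 47.8% to 53.0% of the treated bars and 72.8% to 83.5% of the vehicle bars. The bands of a bar are parts of the same sum, so a wider MAP1LC3B band narrows the others.

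Among the cargo receptors, 5 of 7 were higher and 0 lower (median log2 fold change 0.45), against 28.9% and 26.4% of all tested genes. With the offsets, 4 of the 7 were higher and 1 lower, against 23.6% and 26.8% of all genes in that fit. TAX1BP1, a ubiquitin-binding receptor for protein aggregates and bacteria that also restrains inflammatory signalling, had 77.8, 69.2 and 69.7 CPM in treated libraries, against 23.7, 17.2 and 26.2 CPM in vehicle libraries. The treated libraries were all far above the vehicle libraries, a 3.23-fold rise (log2 fold change 1.69 with an SE of 0.171, edgeR adjusted p = 2.11e-04), and the value with the offsets was 1.45. CALCOCO2, the receptor NDP52 for bacteria and damaged mitochondria, averaged 78.8 ± 0.675 CPM after treatment and 43.7 ± 6.03 CPM in vehicle (log2 fold change 0.85, SE 0.128, edgeR adjusted p = 0.00108), or 0.36 with the offsets (edgeR adjusted p = 0.00662).

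SQSTM1, the p62 receptor that is itself degraded by autophagy, had 559.7, 665 and 627 CPM in treated libraries, against 678, 773 and 561 CPM in vehicle libraries. The ranges overlapped, and SQSTM1 did not pass (log2 fold change -0.12, SE 0.144, edgeR adjusted p = 0.509). With the offsets it was called higher at 0.39 (edgeR adjusted p = 0.00466). NBR1, a receptor that works with SQSTM1, had 47.8, 45.5 and 47.0 CPM in treated libraries, against 30.3, 25.4 and 34.4 CPM in vehicle libraries. The groups did not overlap (log2 fold change 0.64, SE 0.140, edgeR adjusted p = 0.00577), but with the offsets NBR1 was at 0.11 (edgeR adjusted p = 0.280). OPTN, a receptor for bacteria and damaged mitochondria, averaged 79.8 ± 0.975 CPM after treatment and 58.2 ± 5.49 CPM in vehicle (log2 fold change 0.45, edgeR adjusted p = 0.00956). That call was lost without vehicle library 1 (0.44, edgeR adjusted p = 0.0531) and with the offsets (-0.01, edgeR adjusted p = 0.973).

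The mitochondrial outer membrane receptors BNIP3 and BNIP3L, both hypoxia-responsive in many cell types, differed little between groups. BNIP3L had 38.8, 37.2 and 39.3 CPM in treated libraries, against 27.3, 23.96 and 34.3 CPM in vehicle libraries. The groups did not overlap, and BNIP3L was narrowly called higher (log2 fold change 0.43, SE 0.153, edgeR adjusted p = 0.0431). The BNIP3L call was lost without vehicle library 1 or 2 or any treated library (0.32 to 0.45, edgeR adjusted p = 0.0717 to 0.141), with library totals (0.36, edgeR adjusted p = 0.162) and with no count filter (0.41, edgeR adjusted p = 0.0707), and with the offsets it was called lower at -0.32 (edgeR adjusted p = 0.0212). BNIP3 had 24.2, 27.0 and 24.1 CPM in treated libraries, against 21.5, 18.9 and 24.1 CPM in vehicle libraries. Its lowest treated value and highest vehicle value were nearly equal, and it did not pass (log2 fold change 0.22, edgeR adjusted p = 0.209), or was called higher at 0.32 with the offsets (edgeR adjusted p = 0.0410).

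Both genes of the final step, fusion with the lysosome, were higher, as were 28.9% of all tested genes. EPG5, a tether that guides autophagosomes to late endosomes and lysosomes, showed the largest log2 fold change of the 40 genes in the fit without offsets. It had 38.1, 29.7 and 27.5 CPM in treated libraries, against 4.94, 3.92 and 6.29 CPM in vehicle libraries. No treated value came near a vehicle value, and EPG5 rose 6.29-fold (log2 fold change 2.65, SE 0.220, edgeR adjusted p = 1.03e-04), or by 1.90 on the log2 scale with the offsets (edgeR adjusted p = 1.65e-05). In GENCODE 29 (GRCh38), EPG5 spans chr18:45847609-45967339, is transcribed from the minus strand and has 45 merged exons. STX17, the SNARE protein on the closed autophagosome, had 19.4, 16.2 and 17.1 CPM in treated libraries, against 11.7, 10.4 and 11.8 CPM in vehicle libraries. The groups did not overlap (edgeR adjusted p = 0.00609, log2 fold change 0.63, SE 0.140), and with the offsets STX17 was at 0.22 and did not pass (edgeR adjusted p = 0.122).

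**Figure D3:**
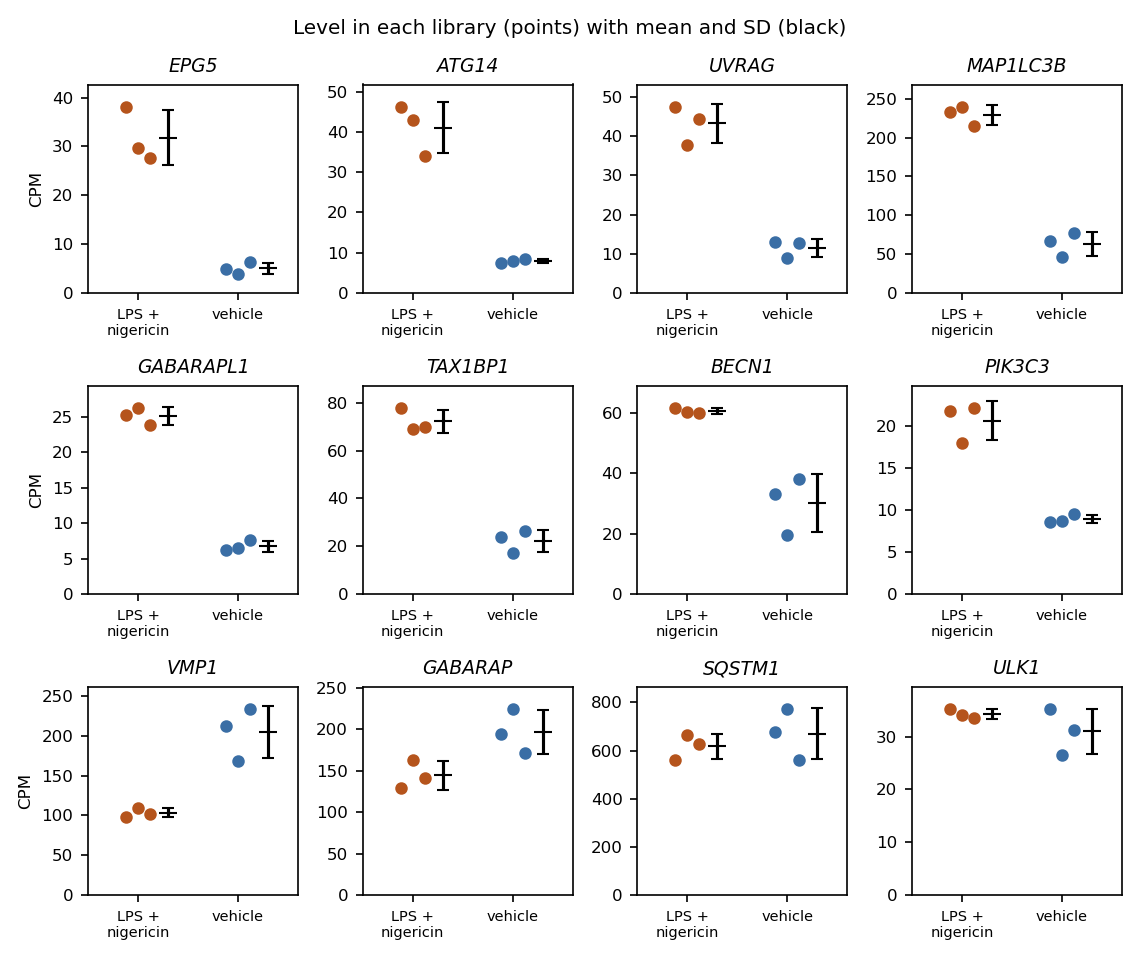
CPM of 12 autophagy genes in each library (points), with LPS plus nigericin on the left and vehicle on the right of each panel, and mean ± SD of 3 libraries in black, each y axis starting at 0. The groups are far apart for EPG5, ATG14, UVRAG, MAP1LC3B, GABARAPL1 and TAX1BP1, reversed in order for VMP1 and GABARAP, and overlapping for SQSTM1 and ULK1.

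The order of levels within the set, on the scale of CPM per kb of exon, also differed between groups. SQSTM1 was at 80.7 ± 6.97 CPM per kb after treatment and 87.6 ± 13.9 CPM per kb in vehicle, and GABARAP at 63.7 ± 7.54 CPM per kb after treatment and 86.9 ± 11.7 CPM per kb in vehicle. They were the highest of the 40 in both groups, and in vehicle they did not differ beyond their spread. MAP1LC3B was the third of the 40 after treatment, at 43.1 ± 2.39 CPM per kb, and in place 9 in vehicle, at 11.9 ± 2.93 CPM per kb. ATG14 stood in place 17 after treatment, at 8.12 ± 1.26 CPM per kb, and in place 33 in vehicle, at 1.58 ± 0.0916 CPM per kb. VMP1 stood in place 8 after treatment, at 14.9 ± 0.827 CPM per kb, and was the third in vehicle, at 29.6 ± 4.80 CPM per kb. ULK2 and ATG2B were the lowest in both groups, each under 1 CPM per kb. Exon length here is the union over all annotated transcripts, which understates genes whose long forms are not used in these cells.

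GC content went with the direction of change among the 40 genes as it did among all genes. The Spearman correlation of log2 fold change with GC content was -0.42 over the 40 genes, which share the same 6 libraries, and -0.53 over 13976 protein-coding genes. The correlation with transcript length was 0.34 over both. Of the 6 members in the GC-richest quintile of protein-coding genes (ULK1, ATG101, ATG2A, ATG9A, ATG4B and ATG4D), 0 were higher and 3 lower, where 7.30% and 60.3% of that quintile passed. Of the 8 members in the GC-poorest quintile, 5 were higher and 1, VMP1, was lower, where 59.0% and 5.15% of that quintile passed. The middle quintile, where 33.5% of genes were higher and 21.7% lower, held 11 members, 6 higher and 2 lower. It included EPG5, UVRAG, MAP1LC3B, GABARAPL1 and TAX1BP1, and the median log2 fold change there was 0.74 for the members and 0.14 for all genes of that quintile. In the GC-poorest quintile these medians were 0.56 for the members and 0.83 for all genes, and in the next they were 0.63 and 0.60. In the remaining quintiles, toward higher GC content, they were -0.05 for the members and -0.40 for all genes, and then -0.42 and -0.74. The part of GC content and length in the changes of single genes was not tested beyond the offsets.

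**Figure D4:**
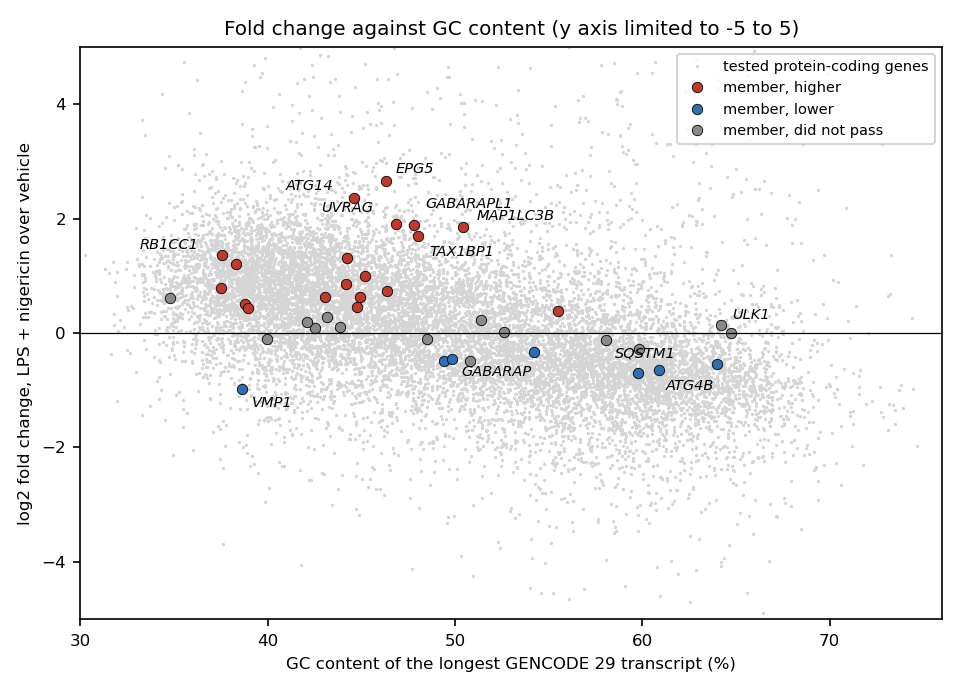
Log2 fold change (LPS plus nigericin over vehicle) against GC content of the longest transcript for tested protein-coding genes (light grey) and the 40 autophagy genes (red higher, blue lower, dark grey did not pass). The cloud slopes downward, the y axis is limited to -5 to 5, and EPG5, ATG14, UVRAG, MAP1LC3B, GABARAPL1 and TAX1BP1 are the highest members and VMP1 the lowest.

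The genes whose calls and directions held in both fits were BECN1, ATG14, UVRAG, AMBRA1, MAP1LC3B, GABARAPL1, CALCOCO2, TAX1BP1 and EPG5, all higher, and WIPI1, WIPI2, VMP1 and GABARAP, all lower. Of these, AMBRA1, WIPI1, WIPI2 and GABARAP lost their call in the fit without offsets when at least 1 of the 6 libraries was left out. The rises that did not pass with the offsets were those of ULK2, RB1CC1, PIK3C3, ATG2B, ATG5, ATG12, NBR1, OPTN and STX17. The falls of ATG101, ATG2A and ATG4B did not pass with the offsets either. Called with the offsets but not without were ULK1, ATG4D, SQSTM1 and BNIP3 as higher, and PIK3R4, ATG3, ATG7, ATG16L1, ATG4A and GABARAPL2 as lower. Only BNIP3L was called in opposite directions by the fits. ATG13, ATG9A, ATG10 and ATG4C passed in neither.

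**Figure D5:**
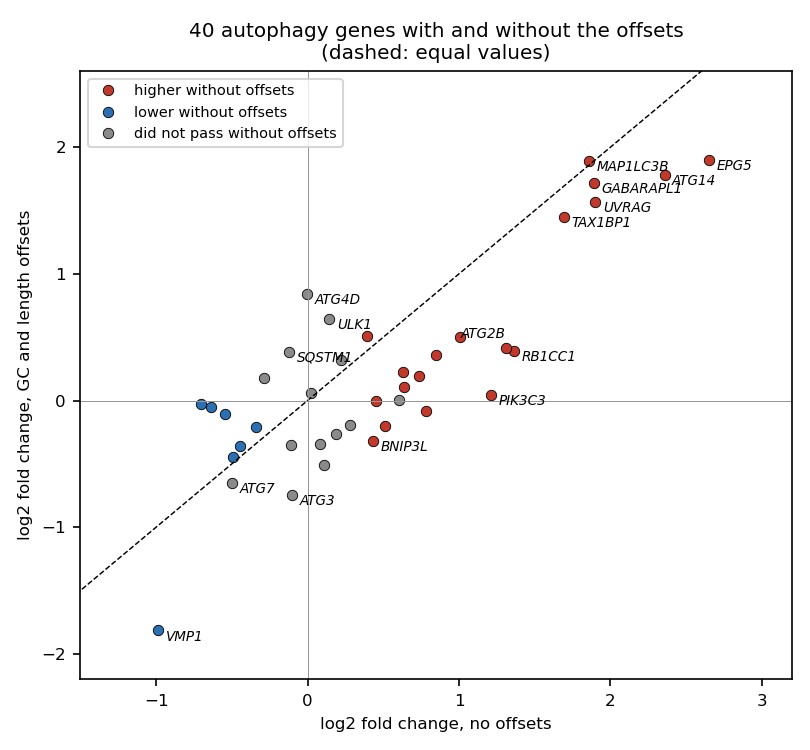
Log2 fold change of the 40 genes (LPS plus nigericin over vehicle) without (x axis) and with (y axis) the GC and length offsets, coloured by the call without offsets, with equal values on the dashed line. MAP1LC3B lies on the line at 1.86 and 1.89, PIK3C3 drops to 0.05 and VMP1 moves to -1.82.

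Genes around the core machinery, from lists that exclude the 40, moved in both directions. For comparison, 28.9% of all tested genes were higher and 26.4% lower, or 23.6% and 26.8% with the offsets. Among 31 tested genes of the mTORC1 and AMPK pathways, which restrain and activate autophagy, 15 were higher and 12 lower (median log2 fold change -0.01). With the offsets these counts were 11 and 9. TSC1, an inhibitor of mTORC1, had 78.4 ± 8.63 CPM after treatment and 16.6 ± 1.55 CPM in vehicle (log2 fold change 2.24). FLCN and its partner FNIP1, which act on lysosomal Rag GTPases, rose by 1.85 and 2.41 on the log2 scale. RPTOR, the scaffold of mTORC1, was at -0.74, STK11, the kinase that activates AMPK, at -0.96 and DDIT4, a stress-induced mTORC1 inhibitor, at -0.83 (log2 fold changes, each passing as lower). DDIT4 did not pass with the offsets (-0.28, edgeR adjusted p = 0.125), and STK11 was at -0.25.

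Of 7 tested MiT and FOXO transcription factors, 2 were higher and 2 lower (median log2 fold change -0.10), or 2 and 3 with the offsets. TFEB fell to 1.71 ± 0.310 CPM in treated libraries, against 5.82 ± 0.814 CPM in vehicle libraries, FOXO4 was lower at -0.88, and MITF and FOXO3 were higher at 1.31 and 1.04 on the log2 scale. MITF and FOXO4 did not pass with the offsets. TFE3, of the same list, was at 194 ± 12.8 CPM after treatment and 208 ± 33.2 CPM in vehicle, far above TFEB. It did not pass (log2 fold change -0.10, edgeR adjusted p = 0.560), but was called higher at 0.42 with the offsets (edgeR adjusted p = 0.00234). Among 12 other ATG8 and core genes, 4 were higher and 5 lower (median log2 fold change -0.05), or 3 and 3 with the offsets. ULK4 was higher at 1.68 and MAP1LC3B2 at 1.76, and MAP1LC3A, another LC3 gene, was lower at -1.35 and ULK3 at -0.69 on the log2 scale. MAP1LC3A and ULK3 did not pass with the offsets. The WIPI relatives differed in direction, WDR45B having 101 ± 4.99 CPM after treatment and 48.5 ± 12.8 CPM in vehicle (log2 fold change 1.07), and WDR45 having 35.6 ± 3.87 CPM after treatment and 68.5 ± 13.2 CPM in vehicle (log2 fold change -0.94).

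Of 19 other selective receptors and mitophagy genes, 7 were higher and 7 lower (median log2 fold change 0.26), against 28.9% and 26.4% of all tested genes. With the offsets 2 were higher and 6 lower (median -0.09), against 23.6% and 26.8%. STBD1, which ties glycogen to autophagosomes, fell to 1.37 ± 0.726 CPM in treated libraries, against 7.32 ± 1.30 CPM in vehicle libraries (log2 fold change -2.42), and CALCOCO1 and RETREG3, receptors for the endoplasmic reticulum, were lower at -0.83 and -1.03. RTN3 and SEC62, also receptors for the endoplasmic reticulum, were higher at 0.66 and 0.84, and NUFIP1, a ribosome receptor, at 1.06 on the log2 scale, but these 3 did not pass with the offsets. Of 15 fusion and tethering genes, 4 were higher and 7 lower (median log2 fold change -0.38), and again 4 and 7 with the offsets. Subunits shared by the same tethering complexes moved apart. VPS11 had 273 ± 5.76 CPM after treatment and 67.7 ± 10.5 CPM in vehicle (log2 fold change 2.01, edgeR adjusted p = 5.19e-05), whereas VPS18 had 24.8 ± 3.27 CPM after treatment and 140 ± 29.1 CPM in vehicle (log2 fold change -2.50, edgeR adjusted p = 6.96e-05). With the offsets these were 2.19 and -1.97. VPS41, of the same lysosomal tether, and RAB7A, the GTPase of late endosomes, were higher at 1.23 and 1.00, while YKT6, a SNARE that can act in place of STX17, and TECPR1 were lower at -1.14 and -0.74 on the log2 scale. VPS41 was at 0.36 with the offsets.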

How the data were processed

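RNA of 6 T24 libraries was measured, 3 per group. The authors deposited raw counts per Ensembl gene, per the file headers, and hg38 is the build per the submitters' processing notes. No source used here gives the aligner, counter, annotation release or strand setting. Symbols matched 37840 of 37871 identifiers, and 0 columns belonged to no sample. Genes passing filterByExpr were fitted in edgeR 4.0.16 (R 4.3.3) with TMM factors and a robust quasi-likelihood F test, the group being the only term. CPM use TMM-scaled totals, and SE was derived from F as the size of the log2 value over root F. GC content, exon overlaps and lengths came from GENCODE 29, and promoters from RefSeq. Alternatives were RLE factors, library totals, no count filter, a filter of 1 CPM in 3 libraries, DESeq2 1.42.0, limma-voom (limma 3.58.1), the replicate number as a block, each library left out, and loess offsets (span 0.3) fitted in each library to GC content and transcript length. The scripts were tested on simulated data. Python 3.11.15 drew the figures.

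No replicates were copies of each other: within groups, counts differed beyond sampling, with chi-square over its degrees of freedom at 23.8 to 203. The members, the lists and the tests were chosen with earlier results of these data known. All 40 members are reported, with the value in every library for those called at 2-fold or more and for 18 set by name. VMP1 was added to these after its values were seen. Of each other list the 3 called genes with the smallest p in each direction are named, and TFE3 was added after its values were seen.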

Additional observations from a re-analysis of the deposited data

How the results depend on the processing

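Outside the GC and length offsets, 18 of the 26 called genes kept their call and direction in all 13 alternatives, and 9 of 26 kept them with the offsets as well. The offsets moved most: the number of members called lower was 11, and the sign turned for PIK3R4 (-0.51), ATG9A (0.18), ATG5 (-0.20), ATG10 (-0.20), ATG12 (-0.0852), ATG4A (-0.35), ATG4D (0.84), GABARAPL2 (-0.27), SQSTM1 (0.39), OPTN (-0.0073) and BNIP3L (-0.32). They also took the GABARAPL1 share difference to 2.82 percentage points and that of GABARAPL2 to -2.68. Shares without length scaling, an alternative chosen after seeing the data, differed by 31.4 percentage points for MAP1LC3B, -32.5 for GABARAP and -2.40 for GABARAPL2. Genes near 0 also changed sign: ATG13 with library totals (-0.0175), and ATG4D with limma-voom (0.0142) and the replicate block (0.0054). Leaving out 1 library gave 4 to 9 members lower and 14 to 20 higher, 8341 to 11347 genes called, and values of -0.0712 to 0.14 for ATG13, -0.13 to 0.0877 for ATG4D and -0.078 to 0.31 for PIK3R4. With the replicate block 10408 genes passed, with 19 members higher and 7 lower. The labels do not say whether same-numbered libraries were paired. Their correlations of deviations were -0.02, 0.10 and -0.02, and treated library 1 correlated best with vehicle library 3 (0.12). With 3 libraries per group, such values cannot decide whether there was a pairing. The cause of the changes between alternatives was not tested. For low genes such as ULK2 (2.52 CPM in vehicle), counting error adds to the spread between libraries, and its part was not tested.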

Other observations

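Of the 40 autophagy genes, 23 share at least 50 exon bases with another annotated gene, and since no source used here says whether counting used strand, reads of such pairs cannot be told apart. GABARAP shares 691 bases (30.5% of its exons) with ENSG00000262526 on the same strand, listed at 0.727 ± 1.26 CPM after treatment and 0 CPM in vehicle. It shares another 571 bases (25.2%) with ENSG00000279641 on the opposite strand, which was higher while GABARAP was lower, at 6.78 ± 1.00 CPM after treatment and 1.08 ± 0.195 CPM in vehicle. FBXO31 shares 150 bases with MAP1LC3B on the opposite strand and was lower while MAP1LC3B was higher, at 27.9 ± 2.58 CPM after treatment and 41.3 ± 7.28 CPM in vehicle. MRNIP shares 1582 bases (20.7% of the SQSTM1 exons) with SQSTM1 and was at 29.2 ± 3.36 CPM after treatment and 35.6 ± 10.4 CPM in vehicle, far under SQSTM1. VGLL4 shares 1596 bases with ATG7 and was at 21.2 ± 0.998 CPM after treatment and 16.7 ± 6.02 CPM in vehicle. PSME3, which shares 300 bases with BECN1, was lower while BECN1 was higher, at 140 ± 2.00 CPM after treatment and 186 ± 8.44 CPM in vehicle. JAZF1 shares 415 bases with TAX1BP1 and was higher as well, at 11.9 ± 0.674 CPM after treatment and 4.15 ± 0.937 CPM in vehicle. THAP4, which shares 237 bases with ATG4B, was lower, at 34.8 ± 3.40 CPM after treatment and 119 ± 22.9 CPM in vehicle, as was ATG4B.

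Across the 40 genes alone, the Spearman correlation of each library's log2 level (minus the mean of all 6) with GC content was -0.44, -0.36 and -0.40 in treated libraries 1 to 3 and 0.43, 0.51 and -0.06 in vehicle libraries 1 to 3. In these genes too, vehicle library 3 had the lowest correlation of the vehicle libraries.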
